A study of Homo sapiens with 17 samples.

Results

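The genes described here encode 9 non-motor proteins that build, focus or bind the mitotic spindle: HMMR, TPX2, DLGAP5, NUSAP1, ASPM, PRC1, CKAP5, CKAP2 and TACC3. They were chosen by function, but with earlier results of these data known. Their counts beside those of all genes are therefore not independent of the data. They were found by symbol among the 25548 gene symbols of an RNA sequencing table. Each of the 9 had 1 row and passed the filter that kept 12015 genes for testing. The cells were Jurkat, a long-established human T cell leukaemia line, exposed to ILT3.Fc, a soluble fusion of the outer domains of ILT3, an inhibitory receptor encoded by LILRB4, with an immunoglobulin Fc. Doses of 0, 12.5 and 25 µg/ml were each measured after 6, 12 and 24 h, with 2 libraries in 8 groups and 1 library in the untreated 12 h group, 17 in all. Untreated cells are labelled with a dose of 0 µg/ml, and the labels name no control Fc protein. Whether the 2 libraries of a group came from separate cultures is not stated, so the spread behind each p-value may be technical only. A single line was used, so the values describe that line alone.

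During mitosis the spindle is a bipolar array of microtubules that pulls the chromosomes apart. Around the chromosomes the small GTPase Ran, in its GTP form, frees spindle assembly factors from importins, and these factors then start, bundle and stabilise microtubules. The mRNAs of most such factors are cell cycle regulated and peak in G2 and mitosis, so that in a growing culture their level also reflects how many cells are in those phases. In bulk RNA, fewer cells in G2 and mitosis and less of these mRNAs per cell cannot be told apart.

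Promoters of many G2 and mitosis genes carry a CHR element, bound by the MuvB complex with its partners, beside CCAAT boxes, bound by NF-Y. RefSeq promoter windows on GRCh38.p14, from 250 bases before to 50 bases after the gene start, were matched for 8 of the 9 genes and searched on both strands for the CHR letters TTTGAA and for CCAAT. Both motifs stood in the windows of the same 6 genes (HMMR, DLGAP5, NUSAP1, ASPM, PRC1 and CKAP5). CHR letters were present in 15.2% of all 35116 windows of this length, CCAAT in 34.6% and both in 5.90%. CKAP2 and TACC3 had neither motif in their windows. Each gene had a single window, so any other start of these genes was not searched. A match describes letters and is no evidence of a site in use. The windows below show the gene with the largest decrease (HMMR), 3 other genes with both motifs that fell, 1 with both motifs that missed the threshold over all times (CKAP5), and 1 with neither (TACC3). Capitals mark the motifs, which on the reverse strand read TTCAAA and ATTGG.
HMMR, chr5:163460382-163460681, plus strand: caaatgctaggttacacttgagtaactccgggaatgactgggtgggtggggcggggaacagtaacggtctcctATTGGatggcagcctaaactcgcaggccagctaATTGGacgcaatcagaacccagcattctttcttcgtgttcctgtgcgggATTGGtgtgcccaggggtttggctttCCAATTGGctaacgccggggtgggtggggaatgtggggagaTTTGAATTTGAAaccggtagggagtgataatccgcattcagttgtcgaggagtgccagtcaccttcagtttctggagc
DLGAP5, chr14:55191536-55191835, minus strand: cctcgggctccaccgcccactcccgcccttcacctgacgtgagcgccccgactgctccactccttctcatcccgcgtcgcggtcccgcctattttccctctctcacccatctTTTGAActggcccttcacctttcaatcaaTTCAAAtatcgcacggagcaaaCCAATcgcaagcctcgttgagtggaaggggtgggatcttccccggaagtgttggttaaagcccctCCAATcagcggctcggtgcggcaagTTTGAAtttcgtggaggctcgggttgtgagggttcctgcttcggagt
NUSAP1, chr15:41332631-41332930, plus strand: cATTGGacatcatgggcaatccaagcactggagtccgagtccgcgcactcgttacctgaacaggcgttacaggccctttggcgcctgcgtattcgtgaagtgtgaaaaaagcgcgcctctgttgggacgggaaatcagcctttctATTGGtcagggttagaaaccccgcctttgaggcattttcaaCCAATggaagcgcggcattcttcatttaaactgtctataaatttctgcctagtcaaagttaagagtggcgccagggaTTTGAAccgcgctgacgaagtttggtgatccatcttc
ASPM, chr1:197146620-197146919, minus strand: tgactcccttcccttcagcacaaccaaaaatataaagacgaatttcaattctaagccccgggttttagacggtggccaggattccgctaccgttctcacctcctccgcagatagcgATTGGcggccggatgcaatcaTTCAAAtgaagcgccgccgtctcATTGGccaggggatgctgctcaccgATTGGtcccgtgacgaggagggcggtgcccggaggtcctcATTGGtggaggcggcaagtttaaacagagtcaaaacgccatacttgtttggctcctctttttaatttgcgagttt
CKAP5, chr11:46846231-46846530, minus strand: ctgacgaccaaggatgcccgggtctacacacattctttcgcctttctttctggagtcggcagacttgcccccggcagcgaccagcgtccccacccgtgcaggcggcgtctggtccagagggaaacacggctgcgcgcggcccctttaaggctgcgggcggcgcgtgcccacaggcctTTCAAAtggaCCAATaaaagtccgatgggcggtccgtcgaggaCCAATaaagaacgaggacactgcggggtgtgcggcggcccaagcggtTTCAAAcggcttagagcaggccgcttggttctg
TACC3, chr4:1720381-1720680, plus strand: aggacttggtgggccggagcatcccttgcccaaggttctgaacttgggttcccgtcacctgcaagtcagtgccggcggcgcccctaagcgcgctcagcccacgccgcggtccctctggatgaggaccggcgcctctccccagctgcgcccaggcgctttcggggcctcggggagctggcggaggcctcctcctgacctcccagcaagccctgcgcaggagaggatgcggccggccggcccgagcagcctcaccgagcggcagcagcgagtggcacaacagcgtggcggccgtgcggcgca
In HMMR 2 CHR copies lie end to end, 28 and 22 bases before the gene start, and 5 CCAAT matches precede them, of which 2 overlap as a palindrome.

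Values are FPKM (fragments per kilobase, corrected for library size), a level per length that allows genes to be compared. Mean levels over the 17 libraries ran from 117 FPKM for TPX2 through 107 for NUSAP1, 94.0 for TACC3, 80.4 for CKAP5, 60.5 for PRC1, 51.8 for CKAP2, 48.6 for DLGAP5 and 47.0 for HMMR to 31.7 for ASPM. The ranges over libraries overlapped between every pair of neighbours in that order except CKAP5 and PRC1. The lowest of these means, that of ASPM, stood at percentile 72 of the tested genes and the highest, that of TPX2, at percentile 93.5. All 11 T lineage markers listed passed the filter, and their summed level was 1726 to 1867 FPKM at 25 µg/ml and 1719 to 1824 FPKM in untreated cells. None of the listed myeloid, erythroid, epithelial or fibroblast markers passed the filter. Of 5 B cell markers 1 passed the filter, CD79A, a subunit of the B cell receptor, and the list summed to 38.1 to 41.3 FPKM at 25 µg/ml and 33.6 to 41.6 FPKM in untreated cells, while MS4A1 and PAX5 were at 0 or near 0 in every library. Of 4 NK cell markers 1 passed, NKG7, a cytotoxic granule protein, and the list summed to 5.25 to 6.36 FPKM at 25 µg/ml and 3.87 to 7.63 FPKM in untreated cells. NKG7 was called higher at 25 µg/ml than in untreated cells at 24 h (0.49, limma adjusted p = 0.0341) and lower at 24 h than at 6 h in untreated cells (-0.70), and its part in the results was not tested.

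Sums of FPKM per library were 504363 to 557389, and the depth relative to the deepest library was 0.678 to 1. The absolute depth is unknown. Duplicates correlated at 0.979 to 0.986 across genes. A few libraries stood apart in ways that touch these genes. In replicate 1 of 12.5 µg/ml at 6 h, deviations from the mean library followed transcript length (Spearman correlation -0.60 across genes), and ASPM and CKAP5 have the longest transcripts of the 9, at 10887 and 7121 bases. In replicate 2 of 25 µg/ml at 24 h, deviations followed GC content (Spearman correlation 0.57 across genes). In replicate 2 of untreated cells at 24 h they followed it in the opposite direction (-0.38). TACC3 has the highest GC content of the 9, at 57.8%. HMMR, CKAP2, ASPM and DLGAP5 have the lowest, from 36.7% to 38.4%. Lane 4 held every 24 h library and the first replicate of the 6 h groups, and lane 5 held every 12 h library and the second replicate of the 6 h groups. Time and lane are therefore partly confounded, whereas each lane holds all 3 doses.

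HMMR, a microtubule-associated protein also known as RHAMM that focuses spindle poles and can bind hyaluronan, was the most affected of the 9. At 6 h its level was 52.5 and 55.02 FPKM in untreated cells, 46.9 and 48.5 FPKM at 12.5 µg/ml, and 41.5 and 43.9 FPKM at 25 µg/ml. At 12 h it was 57.3 FPKM in the untreated library, 49.3 and 50.0 FPKM at 12.5 µg/ml, and 41.9 and 41.7 FPKM at 25 µg/ml. At 24 h it was 56.7 and 59.5 FPKM in untreated cells, 43.8 and 44.9 FPKM at 12.5 µg/ml, and 35.2 and 30.9 FPKM at 25 µg/ml. The doses did not overlap at any time, and the level was lower at each higher dose. Of all tested genes, 25.9% had every 25 µg/ml library below every untreated library at 6 h, 32.7% at 12 h and 23.1% at 24 h. The mean at 25 µg/ml was 0.794 of the untreated mean at 6 h, 0.730 at 12 h and 0.569 at 24 h. Over all times the log2 difference in FPKM + 1 between 25 µg/ml and untreated cells was -0.52 (SE 0.035, adjusted p = 2.6e-05), and HMMR ranked 5 of 12015 genes by p. It was also lower at 12.5 µg/ml than in untreated cells, by -0.25 (adjusted p = 0.0276), and lower at 25 than at 12.5 µg/ml, by -0.27 (adjusted p = 0.00558). RefSeq places the antisense gene HMMR-AS1 over HMMR, and since the strand used in counting is not given in the sources used here, reads from the 2 genes cannot be told apart.

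**Figure D1:**
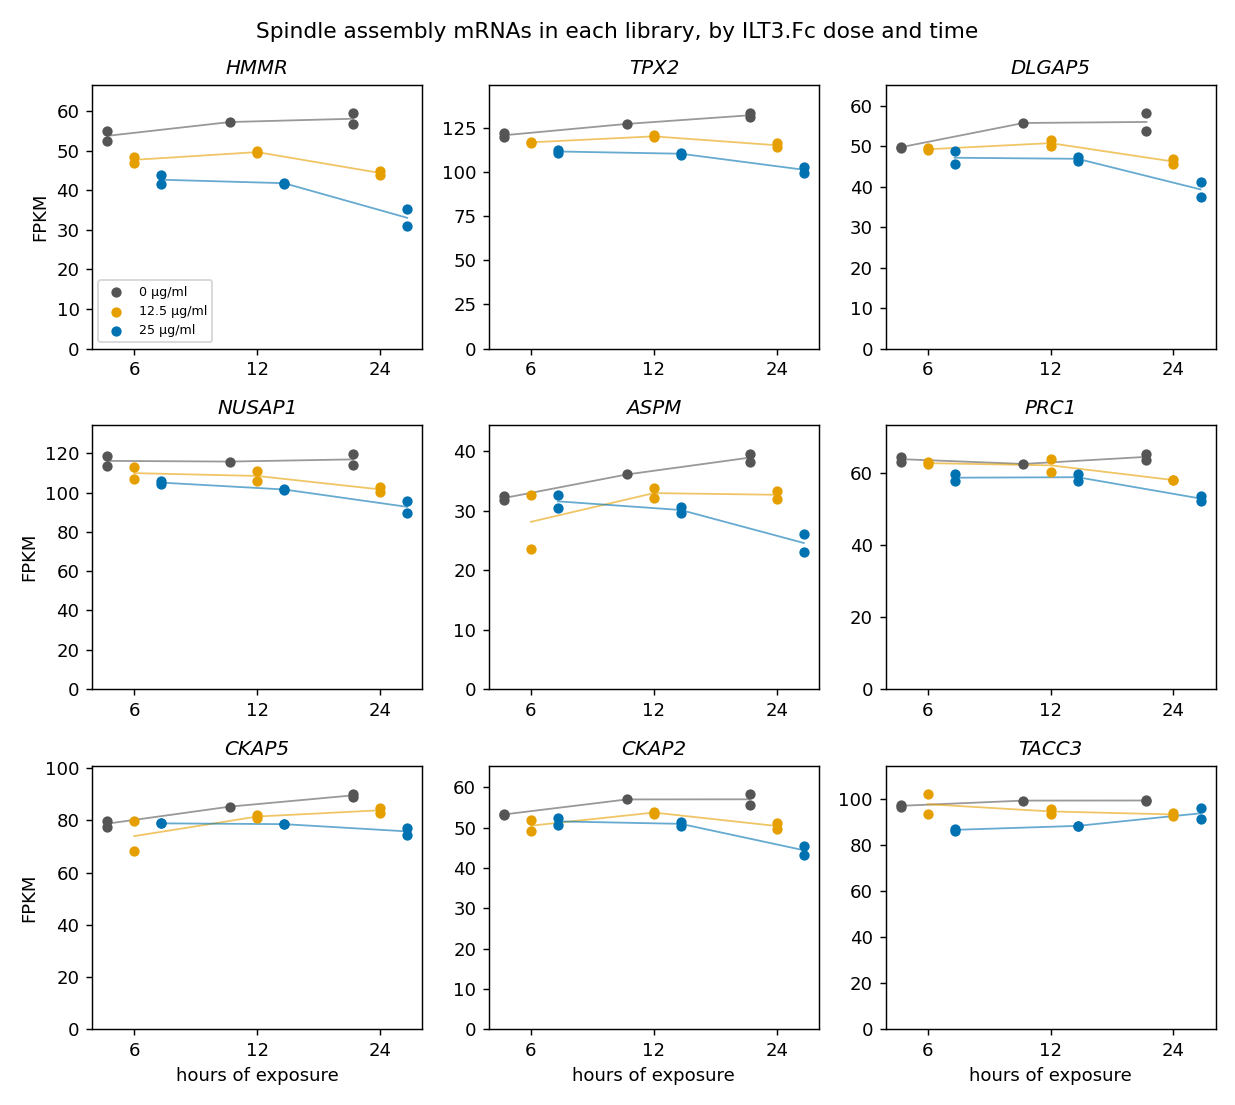
FPKM of the 9 spindle assembly genes against hours of exposure. Each point is 1 library, lines join group means, and colours give the dose; the 3 doses of HMMR are separate at each time and diverge at 24 h, when the untreated libraries stand at 56.7 and 59.5 FPKM and those at 25 µg/ml at 35.2 and 30.9 FPKM.

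Over all times, 8 of the 9 genes fell at 25 µg/ml against untreated cells, with CKAP5 as the exception. Of all 12015 genes tested, 9.47% were called in this comparison, 481 lower and 657 (5.47%) higher. The median log2 difference of the 9 genes was -0.22, against 0.02 for all genes. In 7 of the 9, every library at 25 µg/ml lay below every untreated library whatever the time, which held for 2.31% of tested genes. The 2 others were ASPM and CKAP5.

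Factors that start microtubules around chromosomes and bind them there come first. TPX2 is released from importin by Ran-GTP, activates Aurora A kinase and promotes branching nucleation. At 24 h its level was 103 and 99.5 FPKM at 25 µg/ml, against 133 and 131 FPKM in untreated cells. Its 6 libraries at 25 µg/ml, between 99.5 and 112 FPKM, all lay below its 5 untreated libraries, between 120 and 133 FPKM. Over all times TPX2 fell by 0.23 on the log2 scale (SE 0.019, adjusted p = 1.21e-04). It had a smaller difference than HMMR with a smaller spread. It was also the only 1 of the 9 whose libraries at 25 µg/ml all lay below all of those at 12.5 µg/ml, a pattern found in 0.133% of tested genes.

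DLGAP5, also called HURP, stabilises the kinetochore fibres near the chromosomes and is likewise controlled by Ran. Its level at 24 h was 41.1 and 37.5 FPKM at 25 µg/ml, against 53.8 and 58.1 FPKM in untreated cells. At 6 h it was 45.5 and 48.8 FPKM at 25 µg/ml, against 49.6 and 49.8 FPKM in untreated cells, a gap smaller than that between the duplicates at 25 µg/ml. The difference over all times was -0.27 (SE 0.033, adjusted p = 8.69e-04). NUSAP1, which bundles microtubules and anchors them to chromatin, had 95.7 and 89.8 FPKM at 25 µg/ml at 24 h, against 114 and 120 FPKM in untreated cells. Its difference over all times was -0.22 (SE 0.029, adjusted p = 0.00138). NUSAP1 and HMMR were the 2 genes whose 12.5 µg/ml libraries all lay below all untreated libraries, as did 0.499% of tested genes.

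Proteins of the poles and of the microtubule ends followed. ASPM, which focuses minus ends at the poles and is mutated in primary microcephaly, had 26.0 and 23.1 FPKM at 25 µg/ml at 24 h, against 38.3 and 39.6 FPKM in untreated cells. At 6 h its doses overlapped, with 30.4 and 32.7 FPKM at 25 µg/ml and 32.5 and 31.8 FPKM in untreated cells. The difference over all times was -0.31 (SE 0.069, adjusted p = 0.0200). That call was lost without replicate 2 of untreated cells at 24 h, replicate 2 of 25 µg/ml at 24 h, replicate 1 of untreated cells at 6 h, replicate 1 of 25 µg/ml at 6 h, or replicate 2 of 25 µg/ml at 12 h, each left out alone, with adjusted p from 0.0504 to 0.0536. At 12.5 µg/ml and 6 h ASPM had 23.6 FPKM in replicate 1, the library that follows transcript length, and 32.7 FPKM in replicate 2. The 12.5 µg/ml libraries do not enter the difference of -0.31 between 25 µg/ml and untreated cells. Leaving out either of these 2 libraries therefore altered only the estimated spread behind that call.

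CKAP5, or chTOG, is a microtubule polymerase, and TACC3 carries it to the spindle in a complex with clathrin after phosphorylation by Aurora A. CKAP5 had 77.1 and 74.5 FPKM at 25 µg/ml at 24 h, against 89.0 and 90.2 FPKM in untreated cells. At 6 h it had 78.9 FPKM in both libraries at 25 µg/ml, against 79.8 and 77.7 FPKM in untreated cells, so that the duplicates in untreated cells spanned those at 25 µg/ml. Over all times its difference was -0.12 (SE 0.035, 95% interval -0.20 to -0.040), and it did not pass the threshold (adjusted p = 0.0611). It passed, as lower, in 5 of 30 alternatives: with median centring (-0.14, adjusted p = 0.0223), with the GC and length correction (-0.13, adjusted p = 4.47e-04) and the same with the replicate block (adjusted p = 0.00101), and without replicate 1 or replicate 2 of 12.5 µg/ml at 6 h (adjusted p of 0.00195 and 0.00196). Its lowest value of all, 68.2 FPKM, was in replicate 1 of 12.5 µg/ml at 6 h, whose duplicate had 79.8 FPKM.

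TACC3 binds the spindle with CKAP5, and its difference was smallest at 24 h, though its effects at 24 h and 6 h did not differ past the threshold (adjusted p = 0.479). At 6 h its level was 85.9 and 87.1 FPKM at 25 µg/ml, against 97.4 and 96.5 FPKM in untreated cells. At 12 h it was 88.1 and 88.3 FPKM at 25 µg/ml, against 99.2 FPKM in the untreated library. At 24 h it was 91.3 and 96.1 FPKM at 25 µg/ml, against 99.4 and 99.1 FPKM in untreated cells. The groups did not overlap at any of the 3 times, but such an order held for 25.9%, 32.7% and 23.1% of tested genes at 6, 12 and 24 h. With the GC and length correction the order in time turned, with differences of -0.12 at 6 h (adjusted p = 0.0643), -0.17 at 12 h (adjusted p = 0.0374) and -0.21 at 24 h (adjusted p = 4.68e-04). The highest of the 6 uncorrected levels at 25 µg/ml came from the library whose deviations follow GC content. Over all times TACC3 fell by 0.14 (SE 0.027, adjusted p = 0.0102). TACC3 overlaps TMEM129 in RefSeq.

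PRC1, which crosslinks antiparallel microtubules of the central spindle in anaphase, had 52.3 and 53.8 FPKM at 25 µg/ml at 24 h, against 65.5 and 63.7 FPKM in untreated cells. Its difference over all times was -0.16 (SE 0.024, adjusted p = 0.00261). The antisense gene PRC1-AS1 overlaps it in RefSeq. CKAP2, a microtubule stabiliser of the spindle poles, had 45.5 and 43.2 FPKM at 25 µg/ml at 24 h, against 55.7 and 58.3 FPKM in untreated cells. Its difference over all times was -0.19 (SE 0.026, adjusted p = 0.00183). Neither gene overlapped between 25 µg/ml and untreated cells at any time. At a single time, 25 µg/ml lay wholly below untreated cells in 25.9% (6 h), 32.7% (12 h) and 23.1% (24 h) of tested genes.

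Of the 8 calls over all times, 7 were not made without the 24 h libraries, in a fit that has fewer libraries. HMMR alone passed then, at -0.39 (adjusted p = 0.00588). TPX2 stood at -0.16 (adjusted p = 0.0507), NUSAP1 at -0.17 (adjusted p = 0.102) and TACC3 at -0.16 (adjusted p = 0.110). DLGAP5 stood at -0.16, ASPM at -0.14, PRC1 at -0.10, CKAP2 at -0.10 and CKAP5 at -0.057. Within lane 4, HMMR alone passed, at -0.57 (adjusted p = 0.0392), and within lane 5 no gene passed, with HMMR at -0.38 (adjusted p = 0.0562). All 9 differences were negative in each lane. With lane as a covariate the same 8 genes passed. Since the doses share the same lanes at each time, that covariate left all 9 differences unchanged and altered only the estimated spread.

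At 6 h only HMMR passed for 25 µg/ml against untreated cells, with a difference of -0.33 (SE 0.056, adjusted p = 0.0481), while 0.166% of all genes were called lower. The other 8 differences ran from -0.16 for TACC3 to 0.0023 for CKAP5. The HMMR call at 6 h sits at the threshold: it held in 10 of 31 alternatives, and in 5 of the 17 in which a single library was left out. Leaving out replicate 1 or 2 of untreated cells at 6 h gave adjusted p of 0.238 and 0.512, and leaving out replicate 1 or 2 of 25 µg/ml at 6 h gave 0.322 and 0.2504. The call was also lost when any single library of untreated cells at 24 h, of 12.5 µg/ml at 24 h, or of 12.5 or 25 µg/ml at 12 h was left out. With either library of 12.5 µg/ml at 6 h left out, 2 genes passed.

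At 12 h, with 1 untreated library assumed to vary like the other groups, none of the 9 passed in limma, while 0.0166% of all genes were called lower and 0.0333% higher. At an unadjusted p under 0.05, 384 genes were lower and 650 higher. HMMR missed the threshold narrowly, at -0.45 (SE 0.068, adjusted p = 0.0528), followed by TPX2 at -0.20 (adjusted p = 0.112). HMMR passed when either library of 25 µg/ml at 24 h was left out (adjusted p = 0.0111 in each case), and with either library of 12.5 µg/ml at 6 h left out both HMMR and TPX2 passed. In all 9 genes both 25 µg/ml libraries lay below the untreated library, as they did in 32.7% of tested genes.

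At 24 h, 8 of the 9 genes fell at 25 µg/ml against untreated cells, and 5.76% of all genes were called lower. HMMR fell by 0.80 (SE 0.056, adjusted p = 4.41e-05), ASPM by 0.65 (SE 0.11, adjusted p = 0.0042) and DLGAP5 by 0.50 (SE 0.052, adjusted p = 3.63e-04). TPX2 fell by 0.38, CKAP2 by 0.35, NUSAP1 by 0.33, PRC1 by 0.28 and CKAP5 by 0.24. TACC3 did not pass, at -0.083 (SE 0.043, adjusted p = 0.210). The calls of HMMR, TPX2, DLGAP5, NUSAP1, ASPM, PRC1 and CKAP2 held in 29 of 29 alternatives. That of CKAP5 was lost without replicate 1 or replicate 2 of untreated cells, or without replicate 2 of 25 µg/ml, with adjusted p of 0.0629, 0.110 and 0.117. With each library corrected for GC content and gene length, TACC3 passed too. Corrected differences were -0.75 for HMMR, -0.59 for ASPM, -0.46 for DLGAP5, -0.31 for CKAP2, -0.31 for NUSAP1 and -0.23 for CKAP5, each smaller in size than uncorrected. Those of TPX2 and PRC1 were larger in size, at -0.41 and -0.32.

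**Figure D2:**
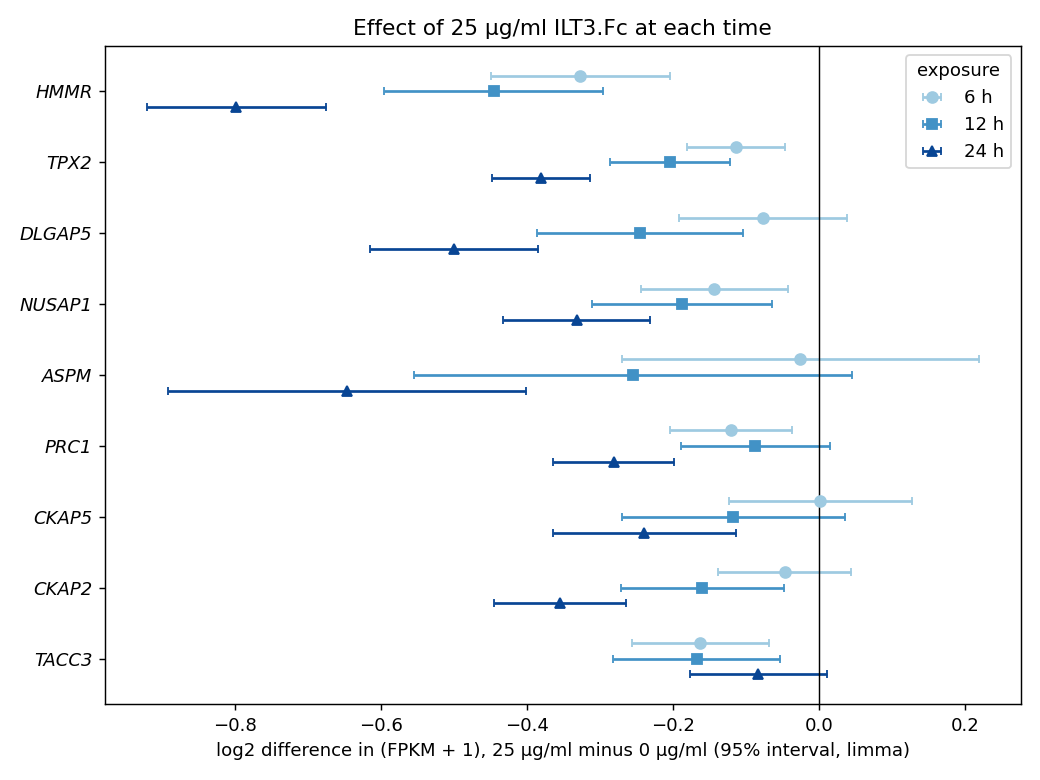
Log2 difference in FPKM + 1 between 25 µg/ml ILT3.Fc and untreated cells for each gene at 6, 12 and 24 h, with 95% intervals from limma. HMMR has the lowest value at each time, -0.33, -0.45 and -0.80, whereas TACC3 is nearest to 0 at 24 h, an order that the GC and length correction turned.

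The 2 dose steps were compared over all times. At 12.5 µg/ml, 2 of the 9 genes were lower than in untreated cells, HMMR and TPX2, against 0.117% of all genes. TPX2 differed by -0.11 (SE 0.019, adjusted p = 0.0496), and the median of the 9 genes was -0.11. Between 25 and 12.5 µg/ml the same 2 genes were lower at the higher dose, against 0.216% of all genes, with TPX2 at -0.12 (SE 0.018, adjusted p = 0.0185). All 3 comparisons between doses share libraries, so these steps are not independent of the comparison of 25 µg/ml with untreated cells. Group means ran in dose order at all 3 times in 5 genes (HMMR, TPX2, DLGAP5, NUSAP1 and PRC1), as they did in 2.48% of tested genes.

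The counts at the lower dose depended on single libraries. At 6 h, leaving out replicate 2 of 12.5 µg/ml kept only replicate 1, the library whose deviations follow transcript length. For 12.5 µg/ml against untreated cells, ASPM and CKAP5, with the longest transcripts, then moved from -0.19 and -0.084 to -0.27 and -0.12. DLGAP5 and NUSAP1 became smaller in size, from -0.139 and -0.124 to -0.137 and -0.111. Without replicate 2 of 12.5 µg/ml at 6 h, 7 genes passed for 12.5 µg/ml against untreated cells and 6 for 25 against 12.5 µg/ml. For 12.5 µg/ml against untreated cells, 1 gene passed without replicate 1 of untreated cells at 24 h or without either library of 25 µg/ml at 24 h. Leaving out replicate 1 of 12.5 µg/ml at 6 h left 2 genes, leaving out the untreated 12 h library gave no value, and leaving out any of the remaining libraries left 0 genes. For 25 against 12.5 µg/ml, 1 gene passed without replicate 2 of either dose at 24 h, without either library of 25 µg/ml at 6 h, or without any 1 library of the 2 doses at 12 h.

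Levels at 24 h were compared with those at 6 h, with and without the protein. In cells at 25 µg/ml, 7 of the 9 genes were lower at 24 h than at 6 h, and 7.32% of all genes were called lower. HMMR fell by 0.36 (SE 0.056, adjusted p = 0.00216), ASPM by 0.35 (adjusted p = 0.0485), DLGAP5 by 0.26 (adjusted p = 0.00772) and CKAP2 by 0.21 (adjusted p = 0.00634). TACC3 stood at 0.11 (SE 0.043, adjusted p = 0.0858) and CKAP5 at -0.057 (adjusted p = 0.520). In untreated cells none of the 9 passed in limma between 24 and 6 h, where 0.558% of all genes were called higher and 1.77% lower, and 723 were higher and 1525 lower at an unadjusted p under 0.05. The 9 differences in untreated cells were all positive, from 0.0093 for NUSAP1 to 0.27 for ASPM, with a median of 0.11, against -0.02 for all genes.

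Single libraries weighed on both counts. At 25 µg/ml, 1 gene (HMMR) passed without replicate 2 of 24 h or replicate 2 of 6 h, and 3 without replicate 1 of 6 h. The ASPM call at 25 µg/ml held in 9 of 29 alternatives, with adjusted p up to 0.260. In untreated cells, TPX2 (0.13, adjusted p = 0.0539) passed without either library of 25 µg/ml at 24 h, and TPX2, ASPM and CKAP5 passed without either library of 12.5 µg/ml at 6 h. With the GC and length correction TPX2, DLGAP5, ASPM and CKAP5 were higher at 24 h than at 6 h in untreated cells. The same correction moved TACC3 at 25 µg/ml to -0.0034 (adjusted p = 0.944).

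The difference between those effects was tested directly, as the effect of 25 µg/ml at 24 h minus its effect at 6 h. It was negative and passed for 4 genes, HMMR, TPX2, DLGAP5 and CKAP2, against 0.949% of all genes. The size was -0.47 for HMMR (SE 0.079, adjusted p = 0.0172), -0.42 for DLGAP5 (SE 0.074, adjusted p = 0.0173), -0.31 for CKAP2 (SE 0.058, adjusted p = 0.0233) and -0.27 for TPX2 (SE 0.043, adjusted p = 0.0166). ASPM had the largest estimate, -0.62, with the largest error (SE 0.16, adjusted p = 0.0594). After the GC and length correction the estimates were -0.40 for HMMR, -0.36 for DLGAP5, -0.23 for CKAP2, -0.50 for ASPM and -0.29 for TPX2. Among these genes TPX2 alone was larger in size than uncorrected. TACC3 was the only 1 of the 9 with a positive estimate, 0.080 (SE 0.060, adjusted p = 0.479), and with the GC and length correction it was -0.088 (adjusted p = 0.204). No gene passed without replicate 2 of untreated cells at 24 h, replicate 2 of 25 µg/ml at 24 h, replicate 1 or 2 of untreated cells at 6 h, or replicate 2 of 25 µg/ml at 6 h, and 2 passed without replicate 1 of 25 µg/ml at 6 h.

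**Figure D3:**
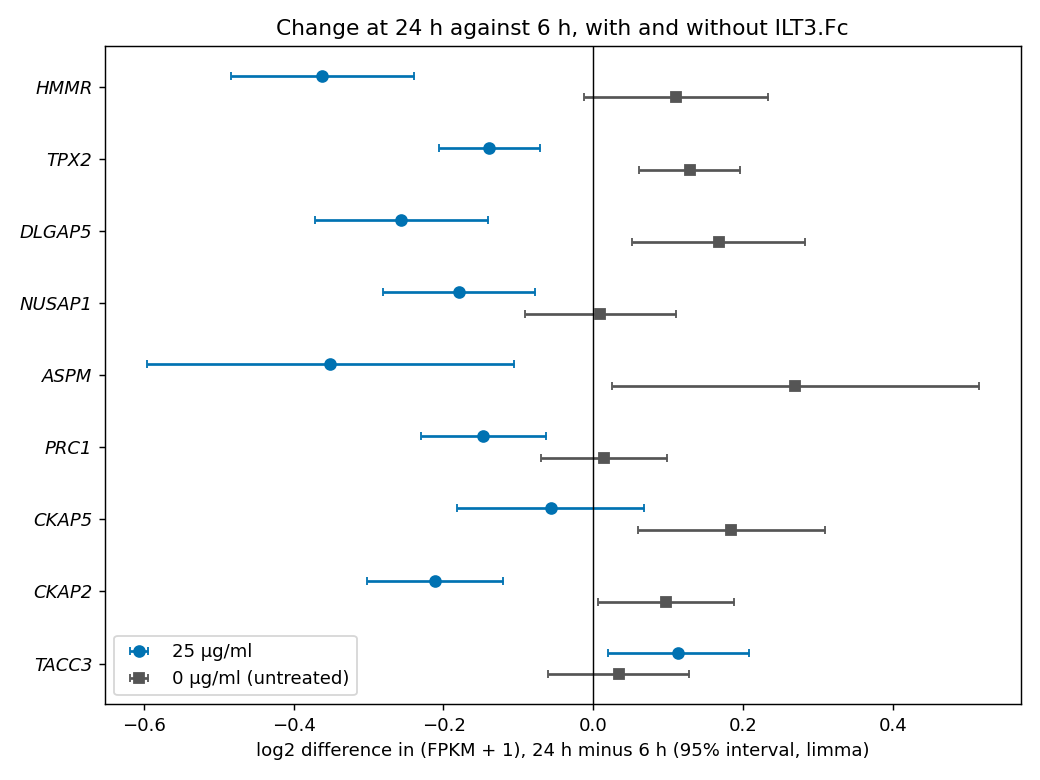
Log2 difference in FPKM + 1 between 24 h and 6 h for each gene, at 25 µg/ml (blue circles) and in untreated cells (grey squares), with 95% intervals from limma. For 8 genes the 25 µg/ml value lies below 0 and the untreated value above it; TACC3 lies at 0.11 and 0.03.

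The profile of HMMR over the 17 libraries was set against that of every tested gene by the root mean square difference of centred log2 values. The 8 nearest were FAM72A, FAM72B, KIF20A, PLK1, CHORDC1, FAM72D, LOC100507552 and SF3B3, at 0.079 to 0.097. KIF20A is a kinesin of cytokinesis and PLK1 a mitotic kinase, whereas CHORDC1 is an HSP90 cochaperone and SF3B3 a subunit of the U2 splicing particle. The FAM72 genes are near-identical copies whose reads could be split between them, so their levels are uncertain. Among the other 8 spindle genes DLGAP5 came nearest at rank 12, then TPX2 at 41, NUSAP1 at 45, ASPM at 58, CKAP2 at 59 and PRC1 at 119. CKAP5 ranked 732 and TACC3 1076. This measure counts the size of a change as well as its shape. The Pearson correlation with HMMR, which ignores size, was 0.914 to 0.943 for the 8 nearest genes. It was 0.964 for TPX2, 0.956 for DLGAP5, 0.948 for NUSAP1, 0.938 for CKAP2 and 0.893 for PRC1. ASPM had 0.789, CKAP5 0.555 and TACC3 0.514. These are descriptions over libraries that share doses, times and lanes.

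Direct partners of the 9 proteins were measured as a list of 8 genes, of which 5 were lower at 25 µg/ml than in untreated cells over all times, with a median difference of -0.19 against 0.02 for all genes. AURKA, the Aurora A kinase that TPX2 activates and that phosphorylates TACC3, differed by -0.26 (SE 0.035, adjusted p = 0.00167). The PRC1-binding kinesins KIF4A, KIF14 and KIF23 differed by -0.27, -0.23 and -0.22. KIF11, the plus-end kinesin that TPX2 binds, differed by -0.14 (adjusted p = 0.0292), a call kept in 16 of 30 alternatives. The clathrin genes CLTC and CLTA, whose products join TACC3 and CKAP5, did not pass, at -0.011 (adjusted p = 0.867) and -0.072 (adjusted p = 0.389). CIT, citron kinase, was at -0.17 (adjusted p = 0.0836).

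Of 40 other non-motor spindle, centrosome and microtubule genes, 9 were lower and 0 higher over all times, and their median difference was -0.028, against -0.22 for the 9 genes. The difference between the lists was not tested. The lowest p-values belonged to FAM83D at -0.32 (SE 0.030, adjusted p = 1.9e-04), RACGAP1 at -0.18 (adjusted p = 0.00107), HAUS4 at -0.25 (adjusted p = 0.00138) and PSRC1 at -0.34 (adjusted p = 0.00159). FAM83D recruits a chromosome-moving kinesin to the spindle, RACGAP1 is a centralspindlin subunit, HAUS4 belongs to the augmin complex and PSRC1 binds microtubule ends.

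Genes that supply or regulate spindle assembly, and further cell cycle genes, were counted in the same way. Of 12 Ran and importin genes (median difference -0.028), 2 were lower over all times and none higher in limma: KPNA2, an importin alpha, at -0.17 (SE 0.031, adjusted p = 0.00856), and XPO1, the exportin CRM1, at -0.14 (SE 0.028, adjusted p = 0.0121). Of 12 alpha and beta tubulins tested, which make up the microtubule itself, none was lower in limma (median difference -0.034) and TUBA8 was higher, by 0.29 (SE 0.068, adjusted p = 0.0254), a call kept in 18 of 29 alternatives. Tubulin genes resemble each other closely, so their reads could be shared between copies. Among 25 further G2 and mitosis genes, such as cyclins, kinases and kinetochore genes, 20 were lower and 0 higher (median difference -0.18), with CCNB2, the B-type cyclin, at -0.38 (adjusted p = 3.34e-04). Among 20 S phase genes 4 were lower and 0 higher (median difference -0.064), with MCM6, a subunit of the replicative helicase, at -0.14 (adjusted p = 0.00403). Of all 12015 genes tested, 481 were called lower and 657 higher in this comparison, which is 9.47% in either direction. The counts of lower genes here, and those of the partner and other spindle lists, stand against the 481 lower genes.

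**Figure D4:**
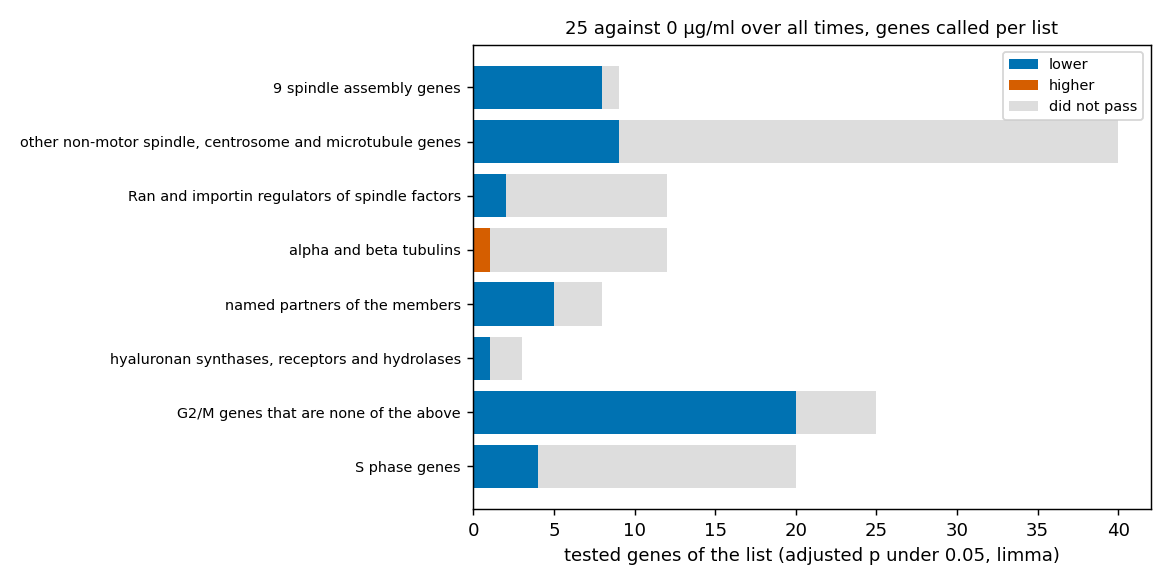
Number of tested genes in each list that were lower, higher or did not pass at 25 µg/ml against untreated cells over all times (adjusted p under 0.05, limma). The 9 spindle assembly genes have 8 lower, the 25 further G2 and mitosis genes 20 lower, and the 12 tubulins 1 higher.

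HMMR is also studied as a hyaluronan receptor at the cell surface, so the other genes of hyaluronan were listed. Only 3 of 15 passed the filter. CD44, the main hyaluronan receptor of leukocytes, had a median of 0.0119 FPKM and was listed at 0 in 8 libraries. The hyaluronan synthase HAS2 and the hyaluronidases HYAL4 and SPAM1 were listed at 0 in all 17, and the synthase HAS3 lay between 0.505 and 1.22 FPKM. HYAL3, a hyaluronidase family gene, was lower at 25 µg/ml than in untreated cells over all times, by -0.47 (SE 0.055, adjusted p = 7.72e-04), at a low level of 2.69 to 5.27 FPKM. HYAL2, the lysosomal and membrane-anchored hyaluronidase, did not pass over all times, at 0.042 (limma adjusted p = 0.623). At 24 h alone it was called higher at 25 µg/ml than in untreated cells, as were 10.7% of all genes. TMEM2, a cell surface hyaluronidase, was at 0.060 (adjusted p = 0.561).

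**Figure D5:**
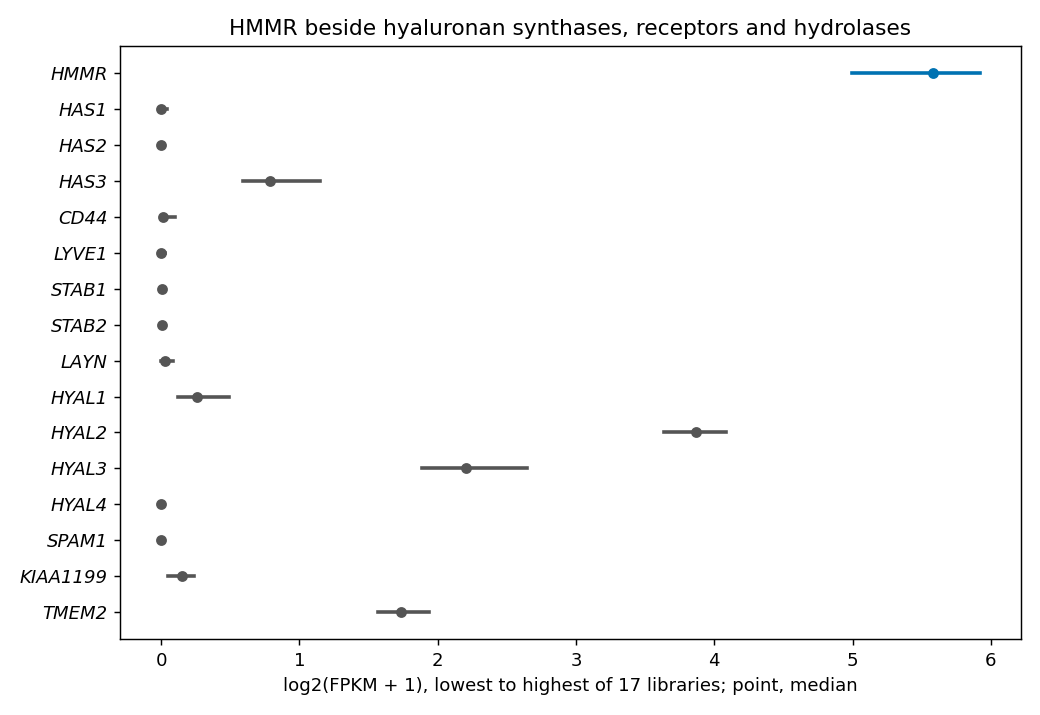
Level of HMMR and of 15 hyaluronan synthases, receptors and hydrolases as log2(FPKM + 1); bars run from the lowest to the highest of 17 libraries and points are medians. HMMR stands above all 15, and CD44, HAS2, HYAL4 and SPAM1 lie at or near 0.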

How the data were processed

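Polyadenylated RNA of 17 Jurkat libraries was sequenced, per the labels' protocols. The authors deposited 1 table of FPKM values. TopHat2 2.1.0 is named in the submitters' processing notes. The sources used here do not give the quantifier, genome build, annotation or strand setting. For 45 symbols listed more than once, the row of highest mean was used. Genes were tested if their mean FPKM reached 1, which left 12015, and the test was made on log2(FPKM + 1), a scale that understates changes of low genes. A model with a separate mean for each of the 9 groups was fitted with limma 3.58.1 under R 4.3.3 (8 residual degrees of freedom, variance trend, 3.00 prior degrees of freedom). Two-sided p-values were adjusted by Benjamini-Hochberg across the 12015 genes, with calls at adjusted p under 0.05. An effect over all times averages those at 6, 12 and 24 h. GC content and transcript length, matched for 10213 tested genes (85.0%), entered a correction by loess (span 0.3). Absolute depth is unknown. Relative depth came from the most frequent log2 ratio of each library to the first library, over genes above 0 in both. These genes were drawn from 11910 with mean FPKM below 0.3. The fit was tested on simulated data with independent noise. These held no lane, transcript length or GC deviations, so that test does not bear on such deviations.

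The members, lists and naming rule (all 9 members, up to 4 genes of smallest p in each list, all partner and hyaluronan genes, and the 8 genes nearest to HMMR) were chosen with earlier results of these data known. There were 14 alternatives beside leaving out each of 17 libraries. Replicate numbers gave no sign of pairing samples.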

Additional observations from a re-analysis of the deposited data

Results flagged for a closer look

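In 4 genes the effect of 25 µg/ml ILT3.Fc against untreated cells differed between 24 h and 6 h by the test of the difference itself (limma, adjusted over 12015 genes). The log2 effect at 24 h minus that at 6 h was -0.47 for HMMR, whose effects were -0.80 at 24 h and -0.33 at 6 h. For DLGAP5 it was -0.42, with -0.50 at 24 h and -0.076 at 6 h. For CKAP2 it was -0.31, with -0.35 at 24 h and -0.046 at 6 h. For TPX2 it was -0.27, with -0.38 at 24 h and -0.11 at 6 h. All 24 h libraries ran in lane 4, and the 6 h libraries were divided between lanes 4 and 5. With lane as a covariate these 4 genes passed, together with ASPM. In lane 4 alone, which holds 1 library of each 6 h group, 0 of the 9 genes passed, and the differences were -0.46 for HMMR, -0.38 for DLGAP5, -0.29 for CKAP2 and -0.27 for TPX2 (adjusted p of 0.329, 0.332, 0.332 and 0.326).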

How the results depend on the processing

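No direction of a called result reversed. Of 2394 values of the 9 genes under alternatives, 2090 kept their direction and side of the threshold, 182 lost a call and 101 gained one, and 21 that passed in neither case changed sign. The count of 8 for 25 µg/ml against untreated cells at 24 h was within 1.5 times under all settings run.

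Numbers of genes called changed as follows, and the cause was not tested except that lane 4 alone, lane 5 alone and fits without 12 h or 24 h libraries use fewer libraries. For 25 µg/ml against untreated cells over all times (8 genes), 1 was called in lane 4 alone, 0 in lane 5 alone and 1 without the 24 h libraries. For 12.5 µg/ml against untreated cells (2 genes), 1 was called with a pseudocount of 0.1, a mean FPKM of at least 5, median centring or lane as a covariate, 0 without the variance trend, in lane 4 or lane 5 alone, or without the 12 h or 24 h libraries, and 7 with the GC and length correction. For 25 against 12.5 µg/ml (2 genes), 1 was called with quantile normalization, 0 in lane 4 or lane 5 alone or without the 12 h or 24 h libraries, and 8 with the GC and length correction. At 6 h (1 gene), 0 were called without the filter, with median centring or quantile normalization, without the variance trend, in either lane alone or without the 12 h or 24 h libraries, and 3 with the GC and length correction. At 12 h (0 genes), 2 were called without the filter, 1 at a mean FPKM of at least 5, with median centring or without the 24 h libraries, and 7 with the correction. For 24 against 6 h in untreated cells (0 genes), 1 was called without the filter or with median centring and 4 with the correction. For 24 against 6 h at 25 µg/ml (7 genes), 0 were called in lane 4 alone. For the difference between the effects at 24 h and 6 h (4 genes), 0 were called in lane 4 alone or without the 12 h libraries, and 8 with the correction.

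Leaving out single libraries gave 7 to 9 genes for 25 µg/ml against untreated cells over all times, 0 to 7 for 12.5 µg/ml against untreated cells, 1 to 6 for 25 against 12.5 µg/ml, 0 to 2 at 6 h, 0 to 2 at 12 h, 7 to 8 at 24 h, 0 to 3 for 24 against 6 h in untreated cells, 1 to 8 at 25 µg/ml and 0 to 6 for the difference of effects.

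Same-numbered libraries showed no shared deviation. Differences of replicate 1 minus replicate 2 were correlated over 28 pairs of groups, with values from -0.183 to 0.128, of which 2 were over 0.1. In none of the 8 groups was the mean correlation with the other groups above 0. The numbers thus gave no sign of pairing samples. With a replicate block the counts were 8, 1, 2, 0, 0, 8, 0, 6 and 4 in the order of the preceding paragraph, and with the block and the GC and length correction they were 6 for 12.5 µg/ml against untreated cells, 8 for 25 against 12.5 µg/ml, 2 at 6 h, 6 at 12 h, 4 for 24 against 6 h in untreated cells and 7 for the difference of effects.

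Lane 4 alone holds no 12 h library and lane 5 alone no 24 h library, so neither gives those comparisons, and without the single untreated 12 h library there is no value over all times against untreated cells. The depth behind an FPKM is unknown, so no counting interval is given.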
